A study of Mus musculus with 26 samples.

Results

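Interferon-stimulated genes are the genes that a cell switches on when it senses an interferon. The group described here is a fixed list of 41 mouse genes, chosen by symbol and matched to the gene identifiers of the count tables. All 41 were found among the 52636 genes counted. They were followed in bulk RNA sequencing of 26 libraries from wild-type mice and from Prss57-/- littermates, which lack neutrophil serine protease 4 (NSP4). Granulocyte-macrophage progenitors (GMPs, sorted as Lin-, SCA-1-, CD117+, CD34+ and CD16/32 high) and common myeloid progenitors (CMPs, the same but CD16/32 low) came from female mice, with 4 libraries per genotype and cell type. Bone marrow-derived mast cells (BMMCs) came from male mice, with 5 libraries per genotype, and were grown from sorted GMPs with IL-3 and SCF. The labels name no interferon treatment in any group. The study bred 2 Prss57-/- strains, which lost exon 2 alone or exons 2 and 3. The labels do not give the strain of these libraries. By the paper's supplement, the strain that lost exon 2 alone served every experiment except those of a figure on joint leakage.

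Type I interferons such as IFN-β bind the receptor chains IFNAR1 and IFNAR2. The kinases JAK1 and TYK2 then activate STAT2, which works with IRF9 at the interferon-stimulated response element (ISRE) in the promoters of target genes. Interferon-γ binds IFNGR1 and IFNGR2 and works through another element, the gamma-activated site (GAS). The products of these genes sense viral nucleic acid, degrade viral RNA, stop viral translation or restrict virus entry, and some of them, such as USP18, end the response. Stem and progenitor cells are known to hold some of these genes at a level above 0 without infection.

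The response element itself could be seen in the promoters of the members. RefSeq promoters (GRCm38.p6, 250 bases before to 50 after each annotated start) were at hand for 31 of the 41 members. The ISRE core, GAAA followed by any 2 bases and GAAA again, was searched on both strands and stood in 19 of these 31 members (61.3%), and in 1079 of all 27025 genes with a promoter (3.99%). No promoter was at hand for Dhx58, Ifi27, Mx1, Mx2, Oas2, Parp14, Parp9, Rtp4, Usp18 and Zbp1. The windows shown are from members that passed the test between cell types and from the near-identical pair Ifit3 and Ifit3b, all upstream of the start and in the direction of the gene. Capitals mark the matches, which read TTTC, 2 bases and TTTC where the core is on the opposite strand. Isg15, Oas1a and Gbp3 had overlapping matches, and the Ifit3 and Ifit3b windows were identical.
Isg15 (chr4:156200871-156200900, reverse strand): gtagGAAAAGGAAACCGAAACAGAAAatag
Oas1a (chr5:120907526-120907555, reverse strand): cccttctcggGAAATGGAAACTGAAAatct
Oas3 (chr5:120777715-120777744, reverse strand): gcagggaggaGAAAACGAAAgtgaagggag
Rsad2 (chr12:26456553-26456582, reverse strand): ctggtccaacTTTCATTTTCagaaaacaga
Ifit1 (chr19:34640794-34640823, forward strand): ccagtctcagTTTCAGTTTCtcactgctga
Ifit3 (chr19:34583397-34583426, forward strand): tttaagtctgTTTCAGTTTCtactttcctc
Ifit3b (chr19:34607793-34607822, forward strand): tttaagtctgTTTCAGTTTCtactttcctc
Gbp3 (chr3:142559992-142560021, forward strand): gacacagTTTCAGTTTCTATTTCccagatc
Gbp7 (chr3:142530273-142530302, forward strand): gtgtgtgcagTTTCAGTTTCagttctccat

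The GAS element, searched as TTCNNNGAA, stood in 9 of the 31 members (29%) and in 2582 of the 27025 genes (9.55%). A match is a run of letters and was not tested for binding here.

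Each library held 18627626 to 53264762 reads on genes. Prss57 checked the labels, at 123 to 198 normalized RPKM in wild-type GMPs, 17.0 to 32.0 in wild-type CMPs and at most 0.178 in Prss57-/- progenitors. In BMMCs it was at 0.0354 to 0.451 in the wild type and had 0 reads in all 5 Prss57-/- libraries. The GMP markers summed to 29797 to 37616 normalized RPKM in wild-type GMPs and 3833 to 8054 in wild-type CMPs, and the mast cell markers to 30687 to 46202 in wild-type BMMCs. Macrophage markers were also present in 9 of the 10 BMMC libraries, at a sum of 1061 to 1658, but at 129 in Prss57-/- BMMC library 3. Prss57-/- CMP library 2 stood apart in that its counts fell with gene length, with a slope of -0.428 in log2 per doubling of length, against -0.074 to 0.345 in the other CMP libraries. Markers of CMPs and the erythroid-megakaryocyte side summed to 2905 there, against 994 to 1615 in the other CMP libraries. Of 37 members with a mean of 0.5 or more, 9 had their highest CMP value in that library and 13 their lowest. T and NK cell genes were under 1 normalized RPKM in every group of progenitors for each of the 5 genes of that list.

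Normalized RPKM is the scale of all levels that follow, that is, reads scaled by gene length and by sequencing depth, which the authors adjusted with a size factor per library. On this scale Ifitm3, which blocks virus entry at the endosome, had the highest mean of all members in all 3 wild-type cell types. It was at 139, 118, 124 and 117 in the 4 wild-type GMP libraries, 233, 235, 211 and 245 in CMPs and 229.6, 212, 227, 251 and 290.5 in BMMCs. CMPs and BMMCs thus overlapped in Ifitm3, and every GMP library was below both. Bst2 (tetherin, which holds budding virus at the cell surface) was at 117, 103, 113 and 112 in wild-type GMPs, 109, 109, 102 and 137 in CMPs and 59.9, 53.4, 59.6, 58.0 and 54.7 in BMMCs. Its order was another, with the progenitors overlapping and every BMMC library below them. The GTPase Ifi47 was the third highest member in GMPs, at 116, 84.4, 72.0 and 75.9, and the second highest in CMPs, at 136, 162, 106 and 136. In BMMCs its place was taken by Ifi27, at 66.9, 65.5, 64.9, 59.3 and 61.9.

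The members covered a wide range of levels. In wild-type GMPs, 11 members had a mean of 10 or more normalized RPKM, 20 were from 1 to 10 and 10 were under 1. The same counts were 14, 21 and 6 in CMPs and 12, 17 and 12 in BMMCs. Ifit3 and Ifit3b were at means under 0.1 in all 3 wild-type cell types. These genes are near-identical copies, and 51.2% and 45% of their 50-base windows occur in the transcripts of another gene, and uniquely aligned reads can undercount them. Oas1a shares 57.6% of its windows, most with Oas1g, and its values are uncertain for the same reason. Of the 41 members, 24 had their highest wild-type mean in CMPs, 15 in BMMCs and 2 in GMPs. In 13, 10 and 1 of them, respectively, the lowest library of that cell type was above every wild-type library of the other cell types. Such counts were not made over all genes, so no trait particular to the members can be read from them.

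**Figure D1:**
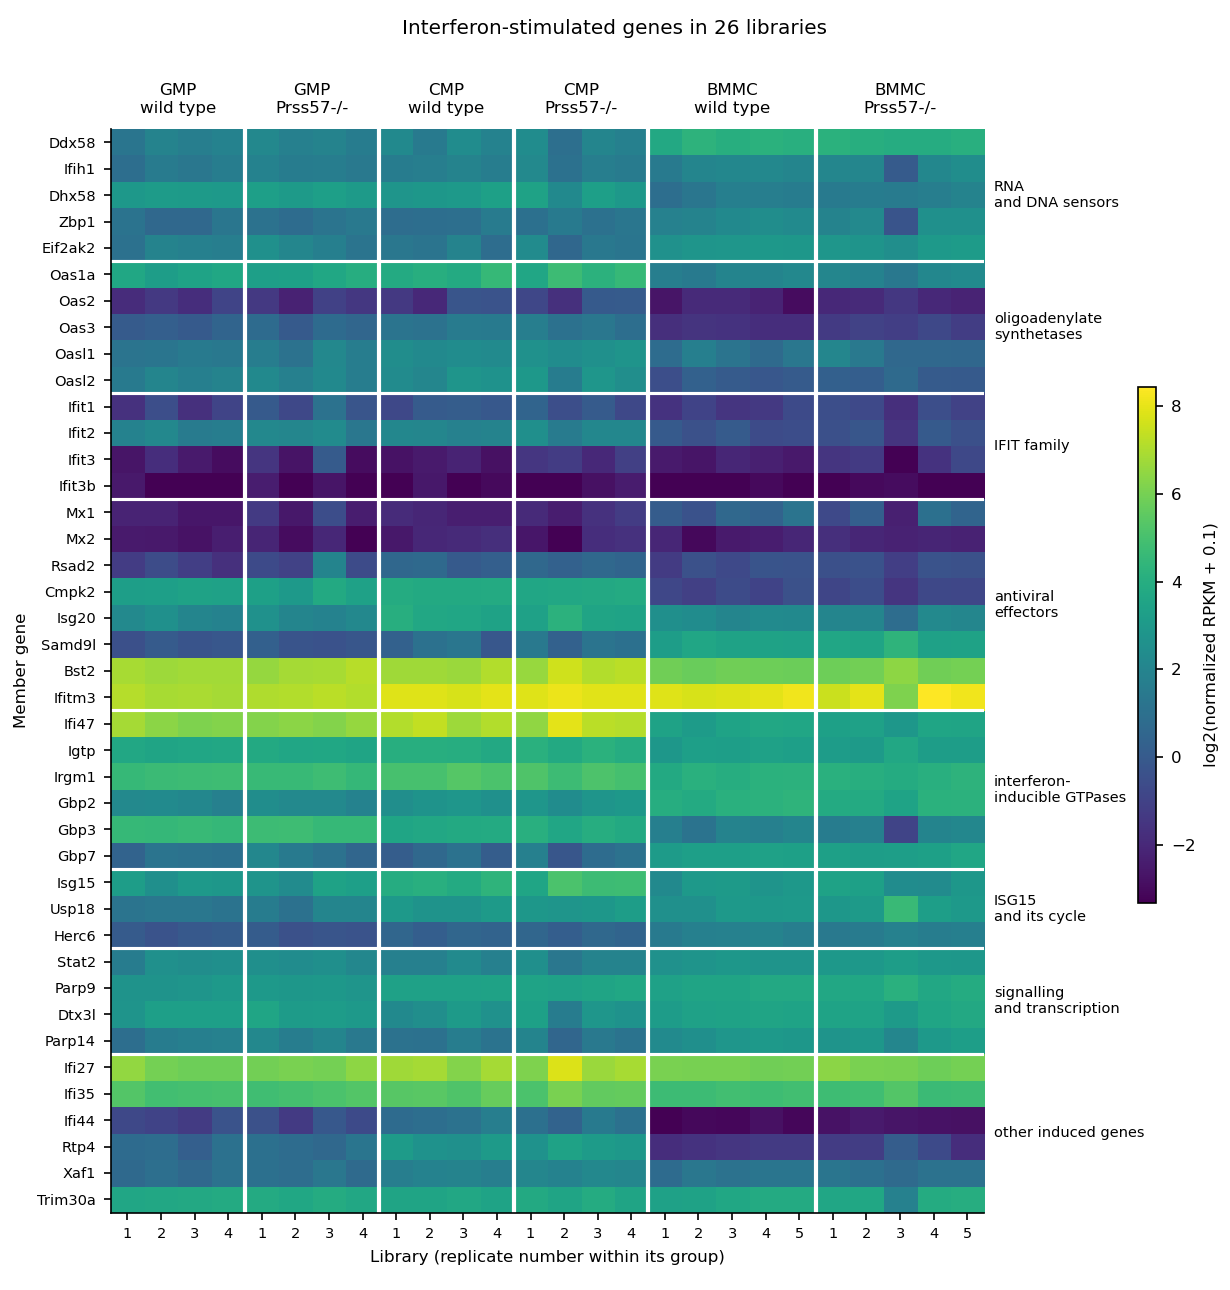
Heat map of the 41 members (rows, by role) in each of the 26 libraries (columns, by group), coloured by log2(normalized RPKM + 0.1). Ifitm3, Bst2, Ifi47 and Ifi27 are the brightest rows, Cmpk2, Ifi44 and Rtp4 are darker in BMMCs than in progenitors, and Ddx58, Samd9l and Gbp7 are brighter there.

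Many of these genes were lower in GMPs than in CMPs. The comparison was made within each genotype, on libraries of the same sex and run, with edgeR on the counts, and a gene was called at an adjusted p under 0.05. In wild-type mice 39 members passed the filter on low counts, of which 21 were lower in GMPs (53.8%) and 1 was higher. Ifit3 and Ifit3b did not pass that filter, nor did Ifit3b in Prss57-/- mice. Of the 14967 genes tested, 18.8% were lower and 19% were higher. The members were chosen with earlier results of these data known, which these shares do not take into account. The median log2 fold change was -0.53 over the members tested and -0.02 over all genes tested. In Prss57-/- mice, whose libraries are other ones, 12 of 40 members tested were lower (30%) and 1 was higher, where 10.9% and 10.6% of the 14959 genes tested were. The medians there were -0.43 and -0.03. All 12 members lower in Prss57-/- mice were among the 21 lower in wild-type mice, and 35 of the 39 members tested in both had the same sign. The 4 others were Ddx58, Ifit1, Mx1 and Rsad2, and without Prss57-/- GMP library 3 the Prss57-/- values of Ifit1 (-0.18), Mx1 (-0.34) and Rsad2 (-1.41) were also negative. Agreement between the genotypes was not counted over all genes. In bulk RNA, fewer cells that carry these transcripts and less of them per cell cannot be told apart.

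Rtp4, which encodes a receptor-transporting protein that binds viral RNA, differed most in both genotypes. It was at 1.61, 1.76, 1.09 and 1.96 in wild-type GMPs and 8.67, 6.18, 5.93 and 8.29 in CMPs (log2 fold change -2.15, standard error 0.22, adjusted p = 3.92e-05). Its Prss57-/- values were 1.95, 1.67, 1.49 and 2.25 in GMPs and 6.28, 10.9, 8.77 and 7.61 in CMPs (log2 fold change -2.14, standard error 0.22, adjusted p = 2.48e-04). The groups did not overlap in either genotype. Ifi44 was low in both cell types, at 0.482, 0.420, 0.319 and 0.711 in wild-type GMPs and 1.61, 1.80, 2.03 and 3.16 in CMPs (log2 fold change -2.13, standard error 0.30, adjusted p = 4.12e-04). Its Prss57-/- values were 0.666, 0.299, 0.854 and 0.525 and 1.96, 1.22, 2.74 and 1.96 (log2 fold change -1.71, standard error 0.37, adjusted p = 0.0108). Again each GMP library was below each CMP library of its genotype.

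All 3 members of the ISG15 group were called lower in GMPs in both genotypes. The call of Herc6 was lost in 6 of 8 fits that left out 1 wild-type library and in 5 of 8 for Prss57-/- libraries, and those of Isg15 and Usp18 in 0. ISG15 is a ubiquitin-like protein that is attached to other proteins, HERC6 is the mouse ligase that attaches it and USP18 removes it and also blocks the interferon receptor. Isg15 was at 9.21, 5.72, 7.86 and 7.43 in wild-type GMPs and 15.3, 16.7, 14.3 and 20.1 in CMPs (log2 fold change -1.12, standard error 0.18, adjusted p = 8.84e-04). Among Prss57-/- libraries it was at 6.73, 4.98, 10.8 and 9.80 and 11.9, 34.4, 26.9 and 27.2 (log2 fold change -1.58, standard error 0.35, adjusted p = 0.0128). Prss57-/- CMP library 1 was low for its group and came close to the highest GMP library, without crossing it. Usp18 was at 2.22, 2.47, 2.45 and 2.12 in wild-type GMPs and 7.82, 6.40, 6.54 and 8.52 in CMPs, a tight separation with one of the smallest adjusted p-values among the members (log2 fold change -1.64, standard error 0.15, adjusted p = 2.11e-05). Its Prss57-/- values were 2.99, 2.01, 3.93 and 3.92 and 7.42, 6.96, 7.36 and 9.19 (log2 fold change -1.22, standard error 0.24, adjusted p = 0.00709). Herc6 had log2 fold changes of -0.51 and -0.70 in wild-type and Prss57-/- mice.

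Of the 8 antiviral effectors, 5 were lower in wild-type GMPs and 3 in Prss57-/- GMPs. Isg20, an exonuclease that degrades viral RNA, was at 4.48, 5.92, 4.01 and 3.62 in wild-type GMPs and 16.6, 13.2, 12.3 and 10.8 in CMPs (log2 fold change -1.53, standard error 0.19, adjusted p = 1.72e-04). Its Prss57-/- values of 6.05, 4.04, 3.62 and 4.46 and 10.4, 18.9, 11.7 and 11.3 gave nearly the same difference (log2 fold change -1.47, standard error 0.24, adjusted p = 0.00254). Samd9l, a restriction factor that stops translation, was at 0.626, 0.926, 0.718 and 0.812 in wild-type GMPs and 1.16, 2.00, 2.35 and 0.805 in CMPs (log2 fold change -1.02, standard error 0.32, adjusted p = 0.0282). Wild-type CMP library 4 lay within the GMP range. The Prss57-/- groups were apart, at 1.10, 0.742, 0.671 and 0.788 and 2.58, 1.14, 2.23 and 1.92 (log2 fold change -1.22, standard error 0.28, adjusted p = 0.0153). Leaving out 1 library lost the Samd9l call in 4 of 8 wild-type fits and in 2 of 8 Prss57-/- fits. Ifitm3 differed by -0.87 and -0.79 in log2, with no overlap in either genotype. The kinase gene Cmpk2, which lies next to Rsad2 on chromosome 12, was lower in wild-type mice (log2 fold change -0.49, standard error 0.10, adjusted p = 0.00349).

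Rsad2 (viperin, which makes a chain-terminating nucleotide) was an effector whose value depended on 1 library. In wild-type mice it was at 0.326, 0.572, 0.360 and 0.207 in GMPs and 1.43, 1.52, 0.902 and 1.10 in CMPs (log2 fold change -1.73, standard error 0.31, adjusted p = 0.00176). In Prss57-/- mice it was at 0.5259, 0.396, 3.88 and 0.548 in GMPs and 1.49, 1.15, 1.45 and 1.27 in CMPs (log2 fold change 0.05, standard error 0.69, adjusted p = 0.963). Prss57-/- GMP library 3 was above every CMP library, and the other 3 were below them all. Without that library the log2 fold change was -1.41 with an adjusted p of 0.00886.

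The oligoadenylate synthetases, which make the second messenger that activates RNase L, were lower in 4 of 5 cases in wild-type mice and in 1 of 5 in Prss57-/- mice. Oas3 was at 0.949, 1.07, 0.916 and 1.29 in wild-type GMPs and 2.20, 2.03, 2.90 and 2.65 in CMPs (log2 fold change -1.19, standard error 0.18, adjusted p = 6.04e-04). Among Prss57-/- libraries it was at 1.64, 0.911, 1.64 and 1.38 and 3.21, 1.98, 2.43 and 1.81, without overlap, but did not pass (log2 fold change -0.72, standard error 0.26, adjusted p = 0.0776). It passed with DESeq2 (adjusted p = 0.0444). The catalytically inactive relative Oasl1 passed in both genotypes, with log2 fold changes of -1.03 and -0.86. Oasl2 and Oas1a passed in the wild type, at -0.69 and -0.56. When 1 library was left out, these calls were lost in 2 and 5 of 8 fits. The call of Oasl1 was lost in 0 of 8 wild-type fits and in 5 of 8 Prss57-/- fits.

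Among the other members that were lower in wild-type GMPs, Xaf1, a pro-apoptotic zinc finger protein, had a log2 fold change of -0.95, Ifi47 of -0.61, Ifi27 of -0.60 and Parp9, which works with the ubiquitin ligase DTX3L, of -0.59. The GTPases Gbp2 and Irgm1 were at -0.53 and -0.43, and Ifit1, which binds viral RNA that lacks a methylated cap, at -1.14. Leaving out 1 wild-type library lost the call in 6 of 8 fits for Ifi27 and for Ifit1. It was lost in 4 of 8 for Ifi47, 3 for Gbp2, 1 for Irgm1 and 0 for Xaf1 and Parp9. Xaf1, Ifi47 and Parp9 also passed in Prss57-/- mice, at -1.04, -0.87 and -0.57. With 1 library left out, the Prss57-/- call was lost in 7 of 8 fits for Ifi47, in 5 of 8 for Parp9 and in 0 for Xaf1. Gbp3, a guanylate-binding protein of the same family as Gbp2, went the other way. It was at 23.4, 22.8, 24.1 and 22.7 in wild-type GMPs and 12.1, 13.3, 14.0 and 14.5 in CMPs (log2 fold change 0.80, standard error 0.10, adjusted p = 1.84e-04), and at 26.5, 27.4, 23.7 and 23.4 and 16.8, 12.5, 15.8 and 14.0 in Prss57-/- mice (log2 fold change 0.82, standard error 0.15, adjusted p = 0.0052). Every GMP library was above every CMP library of its genotype. In 1 fit to all 26 libraries Gbp3 was not called in either genotype.

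None of the 5 sensors of RNA and DNA passed in either genotype. The log2 fold changes of Ddx58 (RIG-I), Ifih1 (MDA5), Dhx58 (LGP2), Zbp1 and Eif2ak2 (PKR) were -0.34 to 0.31 in wild-type mice and -0.02 to 0.49 in Prss57-/- mice. The interval was widest for Eif2ak2 in Prss57-/- mice (95% interval -0.44 to 1.42), which does not show that its level was alike. Of the signalling members, Stat2 (0.43), Dtx3l (0.58) and Parp14 (0.32) had positive values in wild-type mice and did not pass. Dtx3l was next to the threshold (adjusted p = 0.0525) and passed with DESeq2 and limma voom.

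Several facts moved with this comparison. When the gene length slope of the libraries was added to the fit, 24 members were lower and 7 higher in wild-type mice, against 30.3% and 30.7% of all genes, and 21 lower and 5 higher in Prss57-/- mice, against 28.1% and 29.6%. The 5 members higher in Prss57-/- mice were then Eif2ak2, Gbp3, Parp14, Stat2 and Dtx3l. Genes of mature neutrophils, all 6 of which were at 1 or more normalized RPKM in GMPs, summed to 1513 to 3298 in wild-type GMPs and 10.5 to 31.4 in wild-type CMPs. Dendritic cell genes, 4 of 6 at 1 or more in both cell types, summed to 39.7 to 75.4 in GMPs and 107 to 125 in CMPs, and plasmacytoid dendritic cell genes, with 0 of 5 at that level in GMPs and 1 of 5 in CMPs, to 0.224 to 1.54 and 1.74 to 3.46. Their part in the result was not tested. Without wild-type GMP library 3, 12 members were lower in wild-type mice, where 12.5% of genes were, and without Prss57-/- GMP library 2, 7 members were lower in Prss57-/- mice, where 6.38% of genes were.

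**Figure D2:**
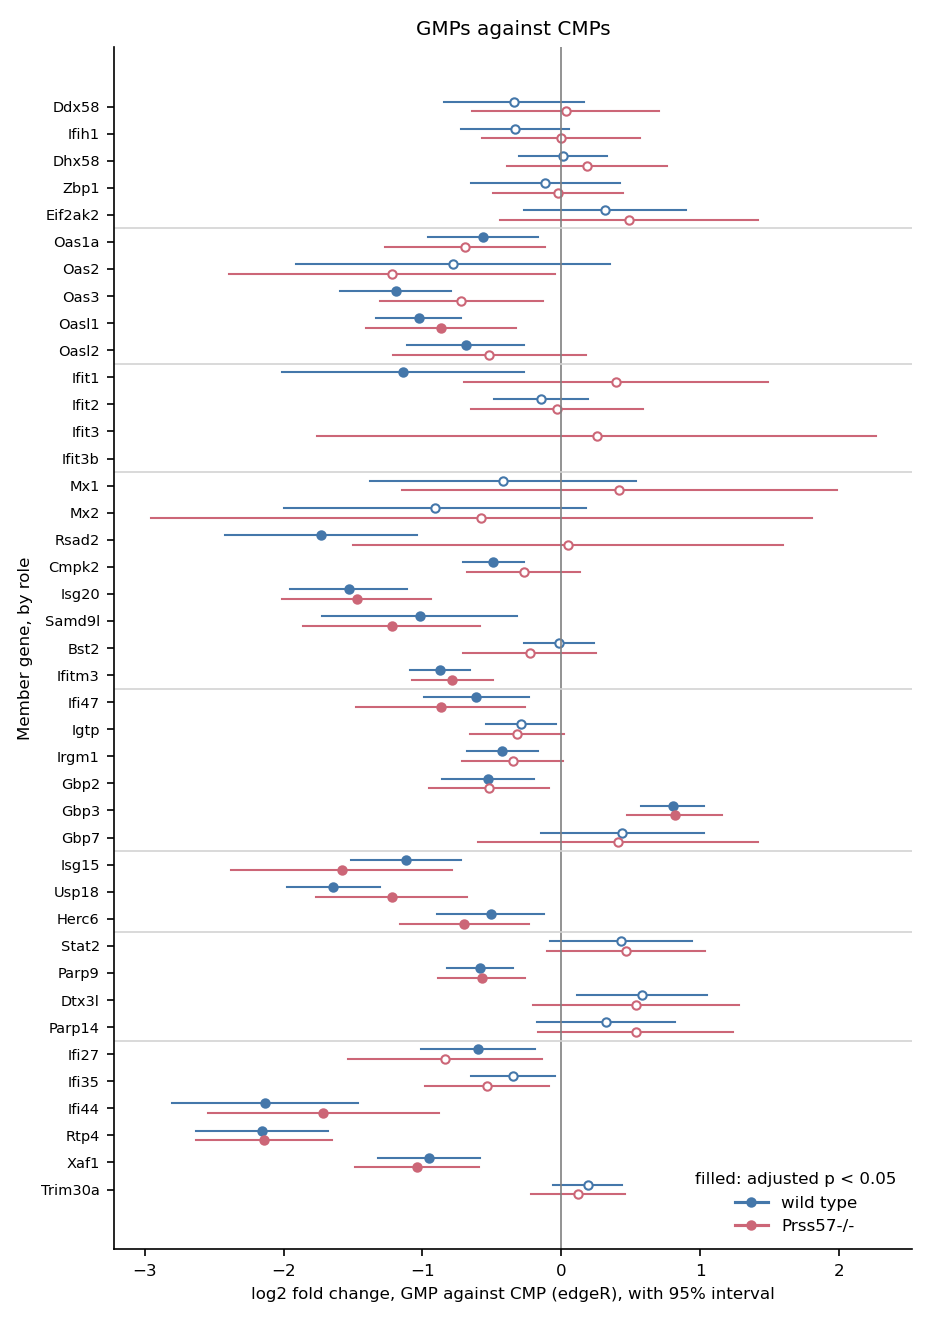
log2 fold change of GMPs against CMPs with its 95% interval (edgeR) for each member tested, by role, in wild-type (blue) and Prss57-/- mice (red). Filled points had an adjusted p under 0.05. Most filled points lie to the left of 0, Gbp3 alone is filled on the right in both genotypes, and the 5 sensors are open.

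Members with and without the ISRE core were set side by side for this difference, with no test. In wild-type mice 8 of 17 tested members with the core in the promoter were lower in GMPs and 1 was higher, and 9 of 12 without it were lower. The medians were -0.34 and -0.65. Among Prss57-/- libraries 2 of 18 with the core were lower and 1 higher, and 7 of 12 without it were lower, with medians of 0.01 and -0.78. Promoter windows reach 250 bases upstream, so elements farther away were not seen.

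Other genes of the pathway were more often higher than lower in GMPs. From a list of 27 genes, 21 were tested in wild-type mice, and 10 were higher in GMPs and 3 lower. Of all genes tested there, 19% were higher and 18.8% lower. The receptor chains Ifnar1 (log2 fold change 0.55), Ifnar2 (0.31), Ifngr1 (0.68) and Ifngr2 (1.12) and the kinase Tyk2 (0.90) were higher. So were the transcription factor Irf1 (0.45), the DNA-sensing pair Cgas (0.53) and Tmem173 (0.71, STING), the kinase Ikbke (2.07) and the phosphatase Ptpn6 (0.46). Irf9 (-0.56), a subunit of the factor that binds the ISRE, Irf7 (-1.44), which amplifies the type I response, and the inhibitor Socs3 (-1.69) were lower. For Prss57-/- mice 6 of 21 tested were higher and 1, Irf7, was lower (-1.57), where 10.6% and 10.9% of all genes tested were. The ligands were nearly absent. Ifna1, Ifna2 and Ifna4 had 0 reads in every library, Ifnb1 had at most 5 reads and these in 1 library, Prss57-/- GMP library 3, and Ifng at most 10 reads.

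BMMCs and GMPs differed in both directions. Cell type, culture, sex and run differ together here and cannot be told apart, and 40.8% of the 14754 genes tested were higher and 40.8% lower in wild-type BMMCs. Of 38 members tested, 13 were higher (34.2%) and 15 lower (39.5%), with a median log2 fold change of -0.18 against -0.0045 for all genes tested. These shares are near the background. Ifit3, Ifit3b and Mx2 did not pass the filter. The members lay much farther apart than between progenitors, from -4.71 to 3.71.

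Members that were higher in BMMCs included 4 of 5 sensors and 2 of 3 genes of the ISG15 group. Samd9l was at 0.626, 0.926, 0.718 and 0.812 in wild-type GMPs and 9.31, 12.3, 10.9, 11.0 and 10.6 in BMMCs (log2 fold change 3.71, standard error 0.14, adjusted p = 2.75e-10). Mx1, which encodes a dynamin-like GTPase, was at 0.125, 0.122, 0.0641 and 0.0661 in GMPs and 0.968, 0.684, 1.47, 1.24 and 2.23 in BMMCs (log2 fold change 3.70, standard error 0.39, adjusted p = 2.26e-06). The groups were far apart for both genes. The sensors Ddx58 (2.31), Zbp1 (1.13), Eif2ak2 (1.09) and Ifih1 (0.51) were higher, as were Gbp7 (2.31), Gbp2 (1.92), Herc6 (1.82), Usp18 (1.52), Parp14 (1.10), Ifitm3 (0.86) and Parp9 (0.70), given as log2 fold changes.

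Members that were lower in BMMCs included 4 of 5 oligoadenylate synthetases. Ifi44 fell to 0 to 3 reads per wild-type BMMC library, or 0, 0.0173, 0.0138, 0.0464 and 0.0146 normalized RPKM, from 0.482, 0.420, 0.319 and 0.711 in GMPs (log2 fold change -4.71, standard error 0.50, adjusted p = 2.53e-06), and at such counts its fitted fold change depends on the prior count. Cmpk2 was at 9.52, 9.80, 10.7 and 10.4 in GMPs and 0.460, 0.362, 0.539, 0.408 and 0.663 in BMMCs (log2 fold change -4.46, standard error 0.16, adjusted p = 2.09e-10). Both groups were tight for Cmpk2. Ifi47 was at 116, 84.4, 72.0 and 75.9 in GMPs and 10.7, 8.68, 11.0, 13.3 and 12.5 in BMMCs (log2 fold change -3.05, standard error 0.17, adjusted p = 7.10e-09). Gbp3 went from 23.4, 22.8, 24.1 and 22.7 in GMPs to 3.27, 2.16, 3.77, 3.33 and 3.97 in BMMCs (log2 fold change -2.90, standard error 0.15, adjusted p = 4.04e-09), while its neighbours Gbp2 and Gbp7, all within a stretch of chromosome 3, were higher. The sensor Dhx58 (-1.69), which regulates the other RIG-I-like receptors, was the sensor that was lower. Rtp4 (-2.71), Oas3 (-2.41), Ifit2 (-2.35), Oasl2 (-2.03), Oas1a (-1.78), Oas2 (-1.42), Bst2 (-1.06), Irgm1 (-0.69), Igtp (-0.50) and Ifi35 (-0.34) were also lower.

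**Figure D3:**
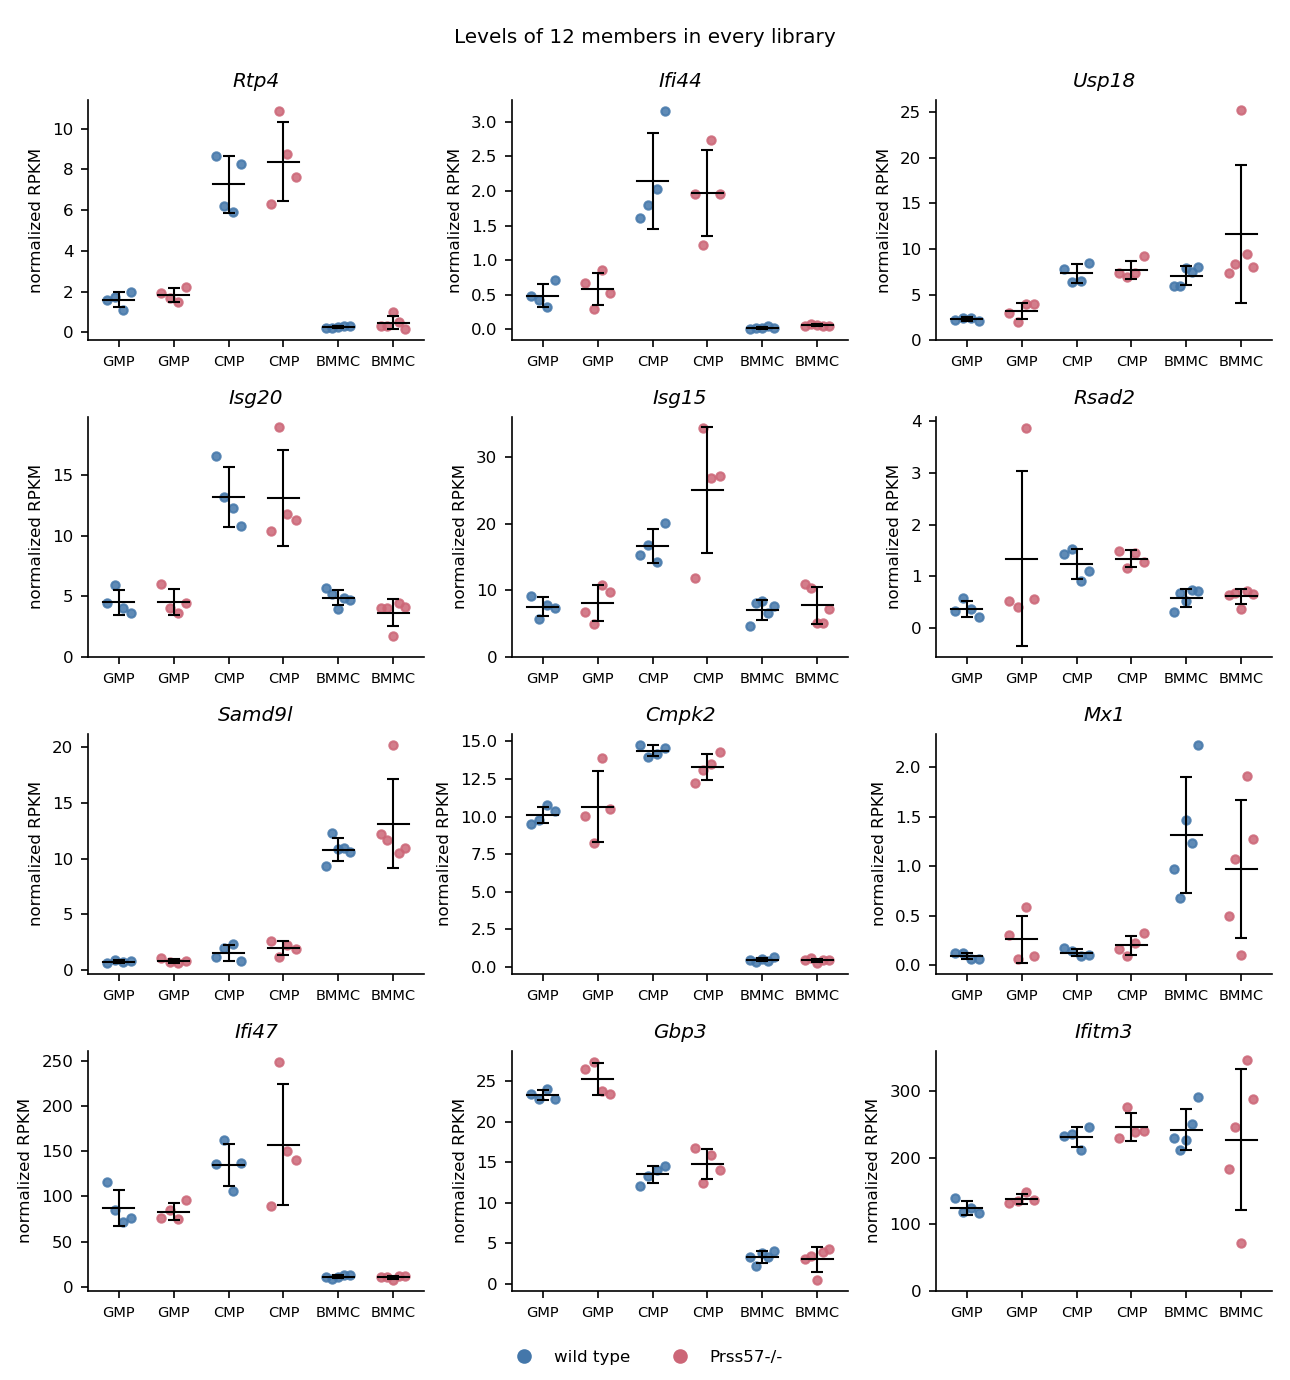
Normalized RPKM of 12 members in every library, in order GMP, CMP and BMMC with wild type (blue) before Prss57-/- (red). Each point is 1 library, and black lines give the mean and SD of the group. Rtp4, Ifi44, Usp18 and Isg20 are lower in GMPs than in CMPs, Gbp3 is higher, and Prss57-/- GMP library 3 is alone above the others for Rsad2.

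In the pathway list, 13 of 21 genes tested were higher in wild-type BMMCs than in GMPs and 6 lower. Of all genes tested, 40.8% were higher and 40.8% lower. The inhibitors of cytokine signalling Socs3 and Socs1 had log2 fold changes of 7.23 and 6.01, and Jak2 and Jak1 of 2.29 and 1.54. Irf7 was lower (-1.62), as was Ifngr1 (-1.27). The macrophage markers were all at 1 or more normalized RPKM in wild-type BMMCs and summed to 1061 to 1339 there, against 73.2 to 90.4 in GMPs. Which cells of the culture carried the members was not tested.

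The loss of Prss57 was compared within each cell type, and this is the contrast of the study. With edgeR, 0 members were called in GMPs, CMPs or BMMCs, where 0.0136%, 0.0067% and 0% of all genes tested were called in either direction. DESeq2 and limma voom also called 0 members in each cell type. The smallest adjusted p of a member was 1.00 after rounding in every cell type. At an unadjusted p under 0.05 there were 3 of 38 members in GMPs, 1 of 40 in CMPs and 2 of 37 in BMMCs, and 0.810%, 0.510% and 2.38% of all genes. The genotype comparisons use the same libraries as the comparisons of cell types. The 95% intervals of 33 of 38 members in GMPs, 31 of 40 in CMPs and 29 of 37 in BMMCs lay within 2-fold in both directions.

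In GMPs, 34 of 38 members had a positive log2 fold change, with a median of 0.13, while 50.4% of all genes tested were positive. Members share libraries and are not independent, so such counts of signs, in all 3 cell types, are not a test of genotype. The median stayed between 0.10 and 0.21 when any 1 library was left out, and the members with a positive value between 30 and 37. Mature neutrophil genes summed to 1467, 819, 952 and 5163 in the 4 Prss57-/- GMP libraries and to 3298, 2229, 1513 and 2383 in the wild type, so that libraries 1 to 3 were below every wild-type library and library 4 above them. Their part in the members' values was not tested. The smallest p-values were those of Ifit1 and Rsad2. Ifit1 was at 0.224, 0.603, 0.208 and 0.428 in wild-type and 0.892, 0.485, 2.08 and 0.761 in Prss57-/- GMPs (log2 fold change 1.52, 95% interval 0.43 to 2.61, unadjusted p = 0.0109 from edgeR). Rsad2 was at 0.326, 0.572, 0.360 and 0.207 and 0.5259, 0.396, 3.88 and 0.548 (log2 fold change 1.87, 95% interval 0.27 to 3.46, unadjusted p = 0.0261 from edgeR). The groups overlapped for both genes, and library 3 of the Prss57-/- GMPs was the highest of all. Without it the log2 fold changes were 0.96 for Ifit1 and 0.42 for Rsad2. In an exact two-sided permutation test, for which 0.0286 is the smallest p possible, Ifit1 had p = 0.0571 and Rsad2 p = 0.143 (0.0857 and 0.143 after Benjamini-Hochberg adjustment over 6 such tests). The third member, Mx1, was at 0.125, 0.122, 0.0641 and 0.0661 in wild-type and 0.303, 0.0671, 0.584 and 0.0918 in Prss57-/- GMPs, with a log2 fold change of 1.47, and of 0.72 without library 3.

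Library 3 of the Prss57-/- GMPs had the highest value of the 8 GMP libraries for 15 of the 36 members with a mean of 0.5 or more. Rsad2 was 9.80 times and Ifit1 4.30 times the median of the other 7 libraries, and Cmpk2, the neighbour of Rsad2, 1.38 times. The median log2 ratio of this library over the 36 members was 0.15, against -0.15 to 0.23 in the other libraries. It also held the only Ifnb1 reads of the series, 5 in number.

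In CMPs, 31 of 40 members had a positive value, with a median of 0.10 against 0.03 for all genes, of which 57.4% were positive. Leaving out 1 library at a time gave 23 to 35 of 40. The 23 were without Prss57-/- CMP library 1, with a median of 0.04, where 47.6% of all genes were positive. The 35 were without Prss57-/- CMP library 2, with a median of 0.13, where 48.3% were. Ifit3 was at 0.0492, 0.0780, 0.127 and 0.0422 in wild-type and 0.263, 0.327, 0.158 and 0.366 in Prss57-/- CMPs (log2 fold change 1.82, 95% interval 0.62 to 3.02, unadjusted p = 0.00718 from edgeR). These values are 3 to 14 reads in the wild type and 16 to 30 in Prss57-/- libraries, and the groups did not overlap (p = 0.0286 in the exact permutation test, the lowest it can give, and 0.0571 after adjustment). Isg15 was at 15.3, 16.7, 14.3 and 20.1 and 11.9, 34.4, 26.9 and 27.2 (log2 fold change 0.57, 95% interval -0.08 to 1.22, exact permutation p = 0.143, and 0.143 after adjustment). Libraries 2, 3 and 4 of the Prss57-/- CMPs were above every wild-type library and library 1 was below them all. Ifit3 and Isg15 were picked for the smallest p-values among the members, which the adjustment over 6 permutation tests does not cover.

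In BMMCs, 22 of 37 members had a positive value, with a median of 0.06, against 52.3% and 0.01 for all genes. With 1 library left out, the count ran from 18 (without wild-type library 1, median -0.01) to 28 (without Prss57-/- library 3, median 0.13). Oas3 was at 0.201, 0.245, 0.230, 0.191 and 0.189 in wild-type and 0.295, 0.401, 0.347, 0.476 and 0.335 in Prss57-/- BMMCs (log2 fold change 0.81, 95% interval 0.40 to 1.22, unadjusted p = 0.00135 from edgeR). Stat2, a transcription factor of the type I response, was at 6.03, 6.64, 7.28, 6.59 and 6.70 and 7.67, 7.53, 9.25, 7.64 and 7.29 (log2 fold change 0.24, 95% interval 0.06 to 0.42, unadjusted p = 0.0154 from edgeR). For both genes every Prss57-/- library was above every wild-type library (p = 0.00794 in the exact permutation test, the lowest it can give, and 0.0238 after adjustment). They were picked for the smallest p-values among the members, and neither passed over all genes, with adjusted p-values that were 1.00 after rounding. The adjustment over 6 permutation tests does not cover how they were picked.

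**Figure D4:**
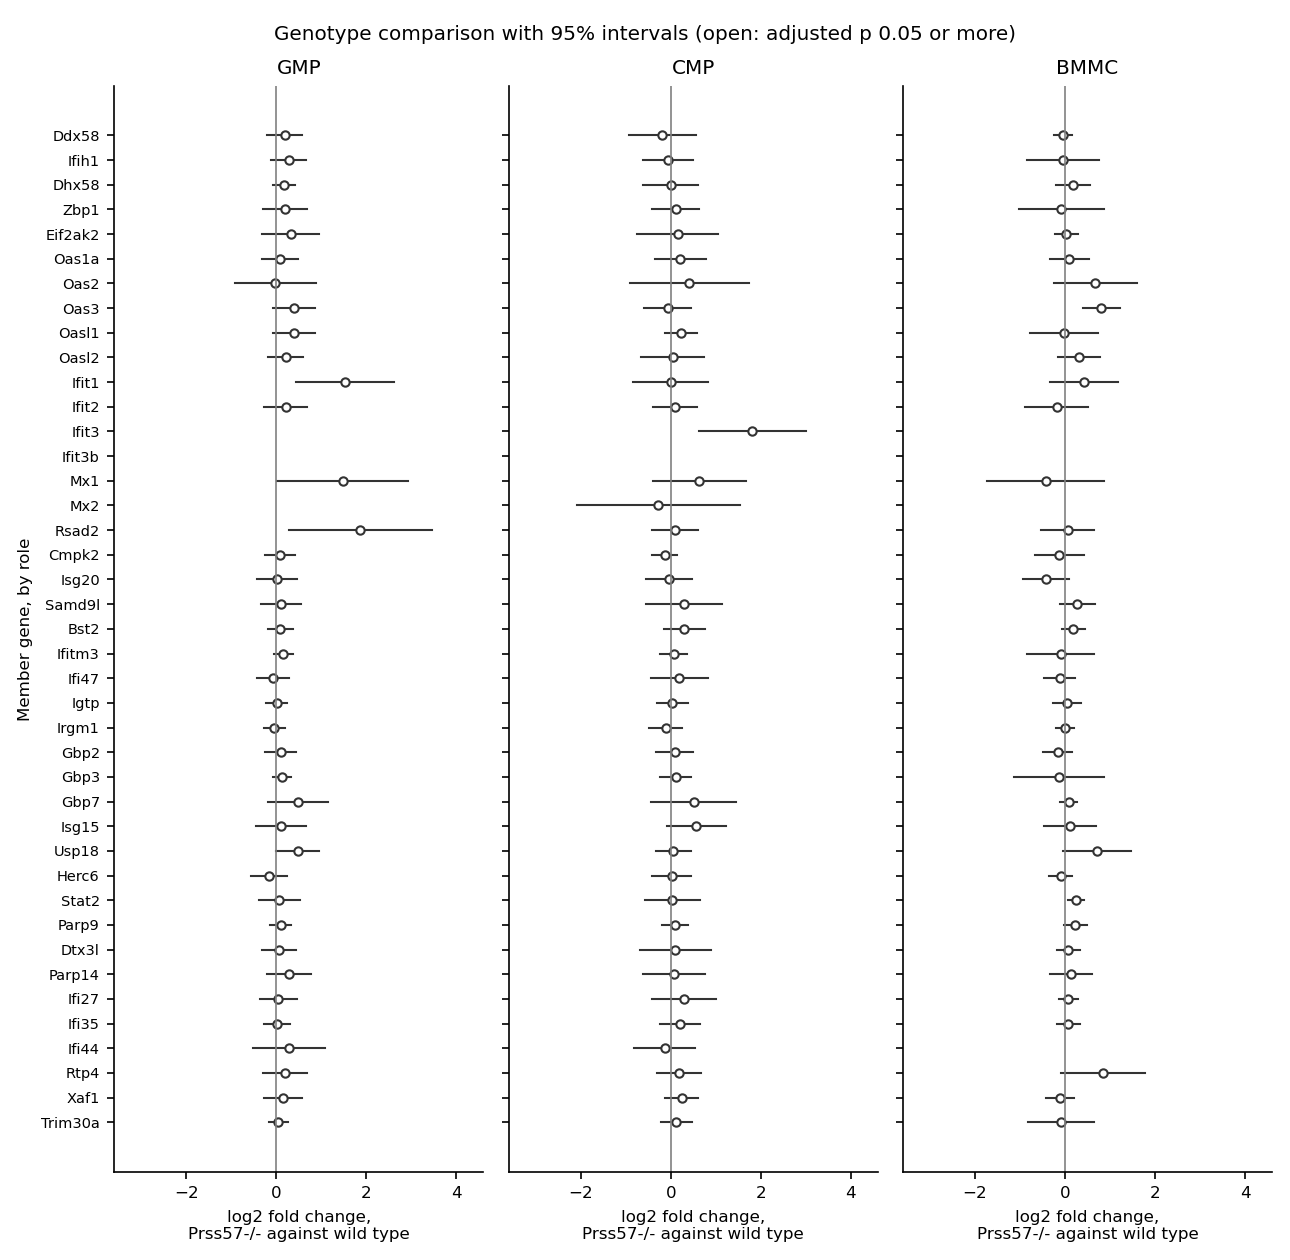
log2 fold change of Prss57-/- against wild type with its 95% interval (edgeR) for each member tested, by role, in GMPs, CMPs and BMMCs. All points are open, as none had an adjusted p under 0.05, and Ifit1, Mx1 and Rsad2 in GMPs and Ifit3 in CMPs lie farthest to the right.

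Whether the loss of Prss57 acted differently in the progenitor types was tested with an interaction term in edgeR. It called 0 of 40 members and 0% of the 15900 genes tested. At an unadjusted p under 0.05 there were 2 members, Ifit1 and Rsad2, and 169 genes in all. Ifit1 had an interaction of 1.51 and Rsad2 of 1.77 on the log2 scale. Both genes had their highest GMP value in Prss57-/- GMP library 3, and the interaction was not fitted without that library.

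Prss57-/- BMMC library 3 differed from the other 9 BMMC libraries in many members, in both directions. Of the 32 members with a mean of 0.5 or more, 15 had their lowest value there and 8 their highest, and 8 were more than 2-fold below the median of the others. Mx1 was at 0.104 where the other 9 were at 0.497 to 2.23, Gbp3 at 0.440 against 2.16 to 4.26 and Zbp1 at 0.729 against 3.47 to 5.94. The sensor Ifih1 was at 0.940 against 2.68 to 5.28, Trim30a at 3.46 against 10.6 to 16.2 and Ifitm3 at 71.6 against 183 to 347. In the same library Usp18 was at 25.2 against 5.96 to 9.41, Samd9l at 20.2 against 9.31 to 12.3 and Bst2 at 86.6 against 53.4 to 63.9.

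Marker genes moved in that library too. All 6 macrophage markers were lower than in any of the other 9, with C1qb at 36.4 against 387 to 606 and Csf1r at 12.3 against 106 to 176. The dendritic cell list had a sum of 70.9 against 829 to 1798, with Cd74 at 40.4 against 589 to 1317 and with Ccr7 and Flt3 at 0. The mast cell list had a sum of 74552 against 24752 to 46202, with Cma1 at 14490 against 1565 to 3836. The part of other cells in the members' values was not tested. Without this library, 0 members were called between the genotypes in BMMCs, and 28 of 37 had a positive value, where 48.2% of all genes had. Without wild-type library 1 or Prss57-/- library 5 the counts were 18 and 19. In the fit without Prss57-/- library 3, Oas3 had a log2 fold change of 0.84 and Stat2 of 0.17.

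**Figure D5:**
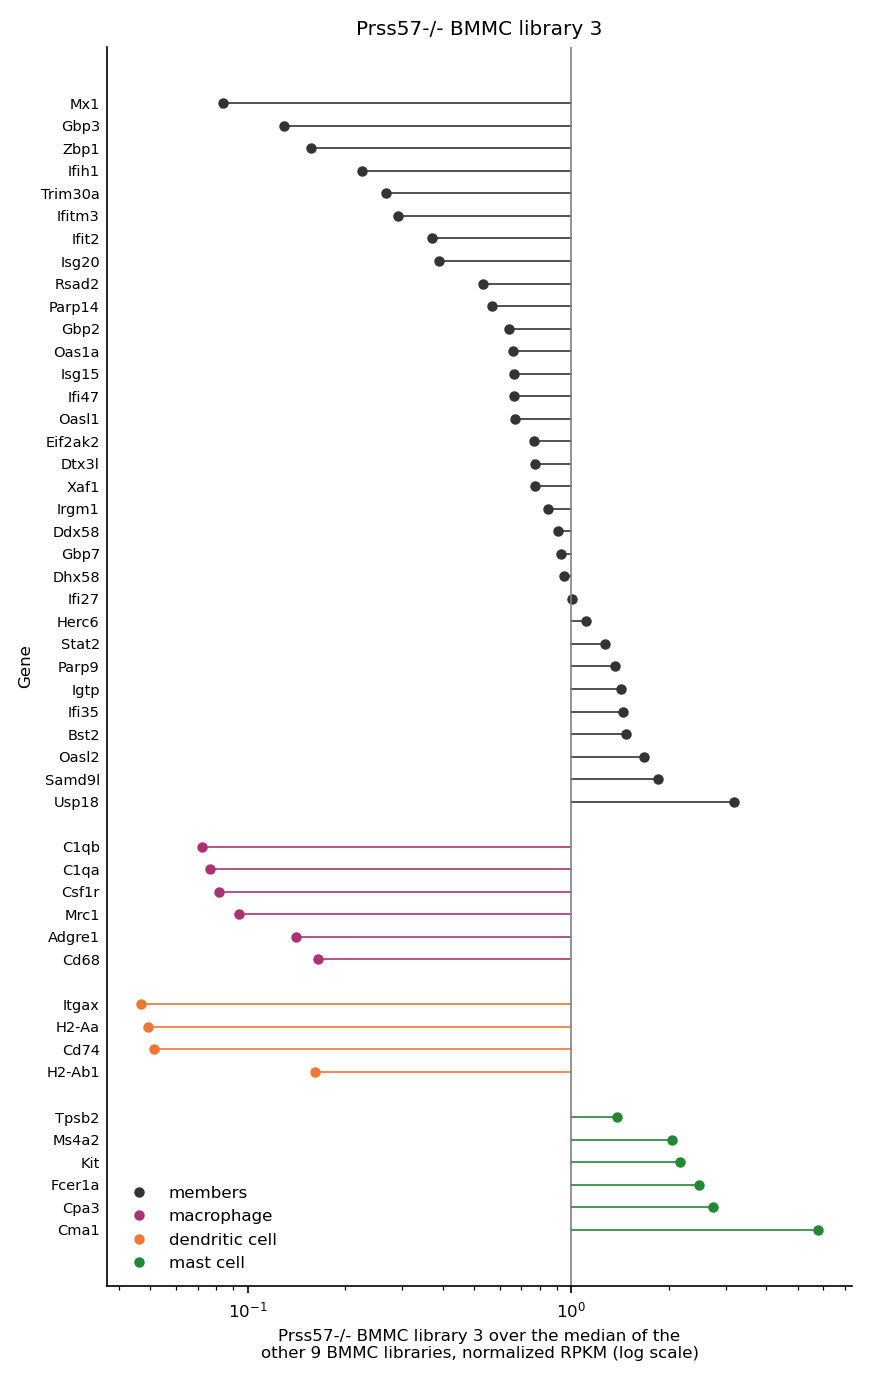
Ratio of Prss57-/- BMMC library 3 to the median of the other 9 BMMC libraries (log axis, normalized RPKM) for the 32 members with a mean of 0.5 or more and for macrophage, dendritic cell and mast cell markers, leaving out genes listed at 0 in that library. Mx1, Gbp3 and Zbp1 are the lowest members and Usp18 the highest, the macrophage and dendritic cell markers are all below 1 and the mast cell markers all above 1.

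Spread within groups was compared with that of other genes. For members with a mean of 1 or more normalized RPKM, the median SD of log2(normalized RPKM + 0.1) was 0.21 in wild-type GMPs, 0.23 in wild-type CMPs and 0.19 in wild-type BMMCs, where all such genes had 0.22, 0.23 and 0.14. In Prss57-/- libraries it was 0.25, 0.39 and 0.28, against 0.20, 0.42 and 0.25. The members were thus above all genes in 3 of the 6 groups and below in the other 3. The most variable member was Rsad2 in Prss57-/- GMPs, with an SD of 1.39, and in Prss57-/- BMMCs it was Gbp3, with 1.26.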

How the data were processed

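Stranded total RNA libraries were sequenced from one end. Alignment was to GRCm38 with GSNAP, run by HTSeqGenie, and for each library the authors deposited the count per gene of reads that aligned once and fell within exons. Whether strand was used is not stated. Parp9 and Dtx3l, for example, overlap in 458 exon bases on opposite strands. The authors also deposited RPKM adjusted by a size factor. Alignment and counting were not repeated. Of 52636 genes, 52403 were matched to symbols in GENCODE M21, and Cgas was matched by an older name.

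The counts were compared with edgeR 4.0.16 (R 4.3.3; TMM, filterByExpr, robust quasi-likelihood test). P-values were adjusted after Benjamini and Hochberg across the genes of each fit, with calls at an adjusted p under 0.05. Only the groups compared entered a fit. Alternatives were DESeq2 1.42.0, limma voom 3.58.1, RLE factors, no filter, replicate blocks, 1 fit to all 26 libraries, leaving out each library in turn, and an adjusted p under 0.01 with at least a 2-fold change. The gene length covariate and a shorter motif were added after seeing the data. The fits were tested on simulated data. Permutation tests used scipy 1.17.1 in Python 3.11.15.

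The members, their roles and the other lists were chosen with earlier results of these data known. Values are given in every library for the 6 members with the largest called change in each comparison of cell types, the 2 with the smallest p in each genotype comparison and the 3 with the highest wild-type mean in each cell type. Libraries of a group are labelled as separate samples, and that the mice were littermates is taken from the methods of the paper. With 4 or 5 libraries per group at the depths given, members with few reads have wide intervals.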

Additional observations from a re-analysis of the deposited data

Results flagged for a closer look

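In the 18 members whose values are given in every library, each of the 6 groups was searched for a library far from the others where at least 1 library reached 0.5 normalized RPKM, and 10 of 95 such groups held one. For independent groups chance gives about 1 in 20. The members share libraries and are not independent, so no excess can be read from the 10 groups found. Of these, 6 lay in Prss57-/- BMMC library 3: Usp18 at 25.21 (the other 4 of its group at 7.331 to 9.411), Samd9l at 20.22 (10.53 to 12.24), Bst2 at 86.55 (56.53 to 63.88), Stat2 at 9.25 (7.286 to 7.667), Isg20 at 1.744 (4.022 to 4.464) and Rsad2 at 0.3554 (0.6357 to 0.7078), all in normalized RPKM. The remaining ones were Rsad2 at 3.876 in Prss57-/- GMP library 3 (0.3955 to 0.5482), Ifi27 at 93.84 in wild-type GMP library 1 (56.72 to 62.25), Isg20 at 18.92 in Prss57-/- CMP library 2 (10.39 to 11.74) and Stat2 at 4.901 in wild-type CMP library 3 (3.335 to 3.391). The libraries that hold Ifi27, Isg20 and Stat2 have slopes on gene length of -0.241, -0.428 and 0.252. The part of library length bias, or of the cells in the culture, in these values was not tested.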

How the results depend on the processing

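Between genotypes 0 members were called under every alternative that was run. In BMMCs against GMPs the counts were 12 to 14 higher and 14 to 15 lower, but 10 and 12 at an adjusted p under 0.01 with at least a 2-fold change. The count of members higher in GMPs than in CMPs was 1 in wild-type mice, and 2 with RLE size factors, no filter, the replicate block, limma voom and DESeq2, 7 with the length slope as a covariate, 0 with all 26 libraries in 1 fit and 0 at an adjusted p under 0.01 with at least a 2-fold change. With each library left out it was 1 to 4, the 4 being without wild-type GMP library 1 or CMP library 3. The count of members lower was 21, and 8 under the stricter rule, where 6.53% of all genes were lower; with each library left out it was 12 to 21, the 12 being without wild-type GMP library 3. In Prss57-/- mice the count of members higher was 1, and 5 with the length slope as a covariate, 0 with all 26 libraries in 1 fit and 0 under the stricter rule, and 1 to 3 with each library left out, the 3 being without Prss57-/- CMP library 1. The count lower was 12, and 21 with the length slope as a covariate, 4 under the stricter rule, and 7 to 15 with each library left out, the 7 being without Prss57-/- GMP library 2. With all 26 libraries in 1 fit Gbp3 was no longer called in either genotype. The causes of these shifts were not tested. Libraries with the same replicate number did not deviate together in every pair of any comparison (correlations of -0.468 to 0.671), so the numbers were not taken to pair the samples; with the replicate block 21 members were lower in wild-type and 15 in Prss57-/- mice. Of the values of single members, 1117 kept their sign and side of the threshold, 73 lost the call, 18 gained one and 9 changed sign. No called value changed sign. Those that did were values of GMPs against CMPs in Prss57-/- mice that had not passed. Rsad2 was at -0.70 with the replicate block and with limma voom, -1.41 (without Prss57-/- GMP library 3) to 0.36 with each library left out, with -0.0309 without CMP library 2. With each library left out Ifit1 was at -0.18 to 0.685 and Mx1 at -0.34 to 0.74, both lowest without GMP library 3. Ddx58 was at -0.0652 without GMP library 1, -0.19 without CMP library 2 and -0.0055 without CMP library 4, and at most 0.26. The gained calls were those of Dtx3l (8), Stat2 (3) and Parp14 (2) in wild-type mice and of Oas3 (4) and Eif2ak2 (1) in Prss57-/- mice. The ISRE core without its last base (GAAANNGAA) stood in 21 of 31 members and in 9.76% of genes, and the core GAANNGAA, which has another spacing, in 16 of 31 and in 22.7%. Depth limits the members under 1 normalized RPKM most: Ifit3b had at most 11 reads in any library.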
